A study of Mus musculus with 36 samples.

Results

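Adult mouse heart muscle cells kept in culture for 72 h were compared with heart muscle cells isolated on the day of birth. The comparison rests on 5 of the 36 RNA-seq libraries of the series, 2 of explanted and dissociated adult cardiomyocytes after 72 h in culture and 3 of cardiomyocytes isolated at postnatal day 0 (P0). All came from CD-1 mice, an outbred stock, with no allele or agent named. The labels state that the P0 cells were isolated on Miltenyi columns, which sort cells by magnetic beads, and they name no such step for the explants. Age, culture and way of isolation therefore differ together between the groups and cannot be told apart, and the labels do not say which library had which preparation. Adult explants at 0 h (2 libraries) show where the adult cells stood before culture, and those at 24 h and 48 h (2 each) give the path between. The labels do not say how many animals gave each library, so p-values here reflect only how far libraries of a group lie apart, which may be technical.

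Around birth, mouse cardiomyocytes leave the cell cycle, exchange fetal for adult isoforms of their contractile proteins and turn from glucose and lactate to fatty acids as their main fuel. Adult cardiomyocytes placed in culture flatten, take their sarcomeres apart and switch on genes of stress and growth, a process called dedifferentiation. The comparison asks how an adult cell that has gone through this change still differs from a newborn one. Values are the authors' FPKM (fragments per kilobase of transcript, scaled to the mapped fragments of the library), and differences are 72 h explants minus P0 on the log2(FPKM + 1) scale, which understates the change of genes with low levels, given as mean ± SE. A gene was called higher or lower at a Benjamini-Hochberg adjusted p under 0.05 in limma over all genes tested, with no minimum fold.

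The 5 libraries held between 11408 and 11971 genes at 1 FPKM or more. The 2 explant libraries correlated at r = 0.946 across genes, P0 replicates 1 and 2 at 0.991, and P0 replicate 3 with the other two at 0.978 and 0.979. Globin transcripts, which mark red blood cells, summed to 20906 and 20582 FPKM in P0 replicates 1 and 2, to 977 in P0 replicate 3 and to 1.35 or less in the explants. Mitochondrial ribosomal RNA stood at 22276 and 25824 FPKM in the explants and between 2900 and 5596 at P0. The female-specific transcript Xist stood at 30.6, 31.8 and 63.7 FPKM at P0 and at 0.0848 and 0.173 in the explants, and the Y-linked Ddx3y at 5.52, 4.98 and 5.14 at P0 and 33.6 and 34.3 in the explants. The sex of the cells thus also differed between the groups and cannot be told apart from age or culture. An exact 0 in this table can be a failed estimate: mt-Co1, a mitochondrial subunit of cytochrome oxidase, was listed at 0 in all 5 libraries, beside mt-Co2 at 15284 FPKM or more. Where a gene is given below as listed at 0, only that is meant. FPKM are shares of a library, and the depth behind them is not known, so no counting error can be given.

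Of 36128 gene models in the table, 12364 reached 1 FPKM in at least 2 of the 5 libraries and were tested. A gene below that level in every library of 1 group entered through the other group, which largely fixes its direction. The groups differed widely: 5702 genes were higher and 1917 lower in the 72 h explants, 61.6% of all tested (46.1% higher and 15.5% lower). The middle of all genes was itself shifted by 0.53, and of the genes called, 74.8% were higher. That split depends on the scale, since 44.7% of calls were higher after median-of-ratios scaling (3052 higher and 3777 lower, or 24.7% and 30.5% of all genes; median -0.06). After quantile normalization it was 52.5% (3582 higher and 3245 lower, or 29% and 26.2%; median 0.06), and each of these scalings called 55.2% of genes. Under all 3 scalings 2948 genes were higher (23.8%) and 1776 lower (14.4%), together 38.2%. In the text each list is given by the main count and by this stricter one. With P0 replicates 1 and 2 averaged into 1 library, a setting added because they were so close, 4625 genes were higher and 1695 lower. Before culture, at 0 h, the test over 12036 genes called 1952 above P0 and 3351 below it (44.1%; 16.2% higher and 27.8% lower), and the median was -0.19. The values of the 2 explants lay above all P0 values in 54.1% of genes and below them in 20.2%, so groups that do not overlap (74.3%) are the rule here. Both comparisons use the same 3 P0 libraries, so their values are set side by side and no overlap between them is counted.

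**Figure D1:**
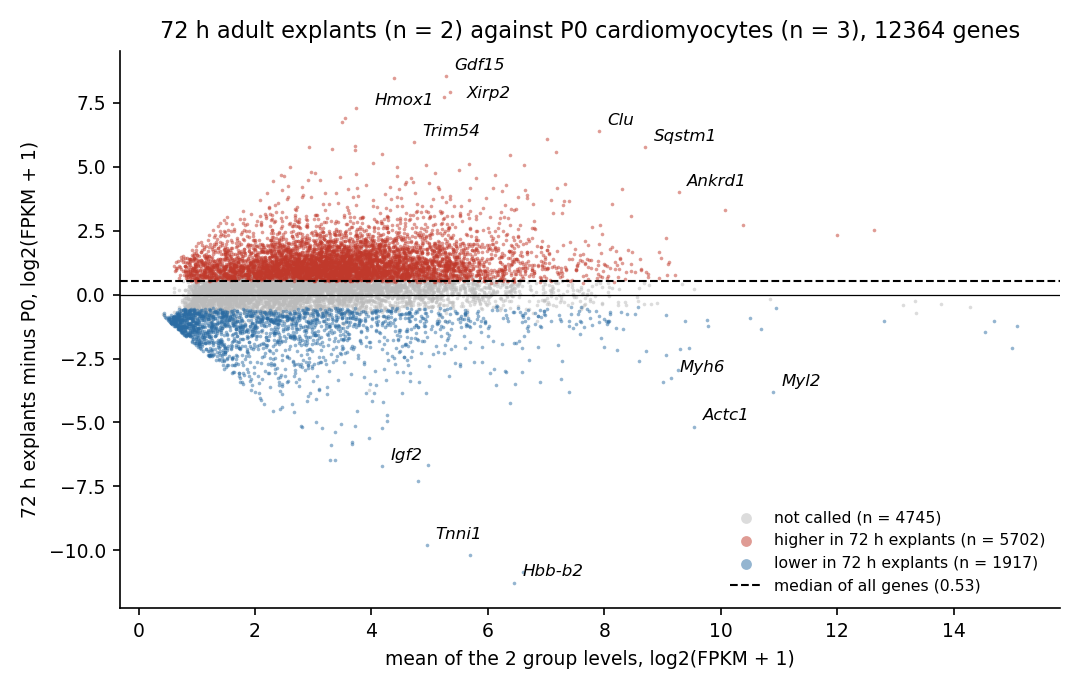
Each point is 1 of the 12364 genes tested, with the mean of both group levels on the horizontal axis and the difference, 72 h explants minus P0, on the vertical axis, both in log2(FPKM + 1). The 5702 genes called higher (red) outnumber the 1917 called lower (blue), the dashed line marks the median of 0.53, with the globin Hbb-b2 and Tnni1 lowest and Gdf15 and Xirp2 highest among the labelled genes.

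The 25 pathway lists fell into groups that moved in opposite ways. Genes of mitosis (28 of 29), fatty acid oxidation (23 of 29), neonatal contractile isoforms (9 of 11) and the extracellular matrix (15 of 24) were mostly lower in the explants, and genes of the antioxidant (21 of 23) and amino acid (15 of 16) stress responses were nearly all higher. The sarcomere, ion channel, glycolysis and cytoskeleton lists held calls in both directions. These shares are read against the 46.1% of all genes that were higher and the 15.5% that were lower: a list with about as many members higher as in the whole table shows nothing of its own. Members below 1 FPKM in both explants, such as Tnni1, Myl7, Mki67 and Ccnb1, met the filter only with P0 libraries. Slc7a11 and Trib3, below 1 FPKM in all P0 libraries, met it only with the explants. The direction of such members is no support.

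**Figure D2:**
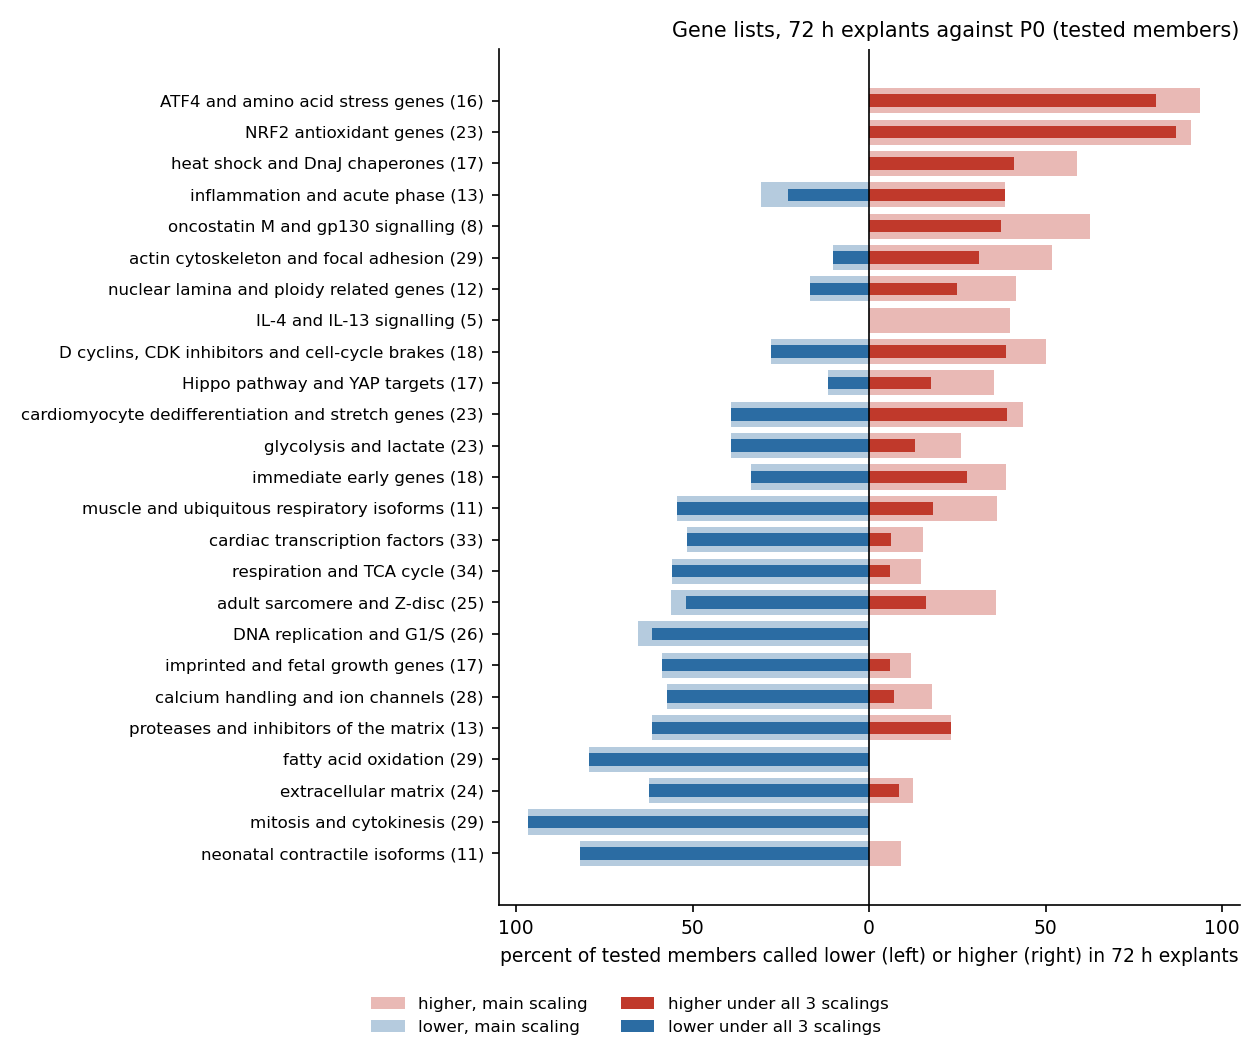
For each of 25 gene lists (number of tested members in brackets), bars to the left give the percent of members called lower in 72 h explants than at P0 and bars to the right the percent called higher. Pale bars are the main scaling and dark bars the members called the same way under all 3 scalings; mitosis and cytokinesis has 28 of 29 members lower, the NRF2 list 20 of 23 higher under all 3.

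In the list of neonatal contractile isoforms, 9 of 11 tested members were lower in the explants, all 9 under every scaling (median -3.80). Tnni1, the slow skeletal troponin I that the heart uses before birth, stood at 0 and 0.0731 FPKM in the explants against 882, 869 and 1036 at P0 (-9.81 ± 0.18, adjusted p = 1.7e-08; chr1:137679641-137707566 in mm9). It was close to 0 in both explants and among the abundant transcripts in all 3 P0 libraries. It was as low at 0 h (0 and 0.0432 FPKM) and stayed at or below 0.0731 FPKM at every explant time, so it was low before the culture began. The same held for the myosin light chains of the fetal and atrial heart. Myl7 stood at 0 and 0.17 FPKM in the explants against 82.1, 82.8 and 129 at P0 (-6.48 ± 0.25, adjusted p = 8.6e-07), after 1.2 and 1.02 FPKM at 0 h. Myl4 stood at 1.29 and 1.05 FPKM in the explants against 65, 67.1 and 102 at P0 (-5.16 ± 0.24, adjusted p = 2.3e-06), after 1.83 and 2.15 FPKM at 0 h. Both were below every P0 library at both explant times. Tpm2, beta-tropomyosin, was also low both at 0 h (2.31 and 2.75 FPKM) and at 72 h (2.01 and 2.95, against 20.9, 18.2 and 23 at P0).

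Other members of that list were low for a different part of the course. Actc1, the cardiac alpha-actin of the thin filament, stood at 5293 and 6524 FPKM at 0 h, 2373 and 2136 at 24 h, 633 and 698 at 48 h and 106 and 143 at 72 h, against 3997, 3993 and 5440.1 at P0. The adult cells thus began at the P0 level, with a difference of 0.41 at 0 h that did not pass the test, and ended far below it (-5.16 ± 0.22, adjusted p = 1.4e-06). Adult ventricle was not called different from P0 ventricle either (0.26, limma adjusted p = 0.254). In these data Actc1 thus did not behave as a neonatal form. Myh7, the slow myosin heavy chain that the mouse ventricle carries before birth, stood at 31.6 and 58.5 FPKM in the explants against 555, 609 and 682 at P0 (-3.80 ± 0.26, adjusted p = 1e-05), after 681 and 1024 FPKM at 0 h. Its expression after 72 h was thus below that of the newborn cell. Acta2, the smooth muscle actin that newborn and dedifferentiating cardiomyocytes both carry, stood at 0.398 and 4.58 FPKM in the explants against 278, 278 and 287 at P0 (-6.66 ± 0.46, adjusted p = 1.2e-05). Both explants were lower than any P0 library, explant replicate 1 more so, and the 0 h cells lay between them at 103 and 46.8 FPKM. Myl9, outside the list, a regulatory light chain of smooth muscle and non-muscle myosin, stood at 1.27 and 1.17 FPKM in the explants against 324, 332 and 398 at P0 (-7.31 ± 0.19, adjusted p = 9.3e-08). Myl6, a light chain of non-muscle myosin, was the single member called higher (28.1 and 27.7 FPKM in the explants against 17.6, 16.1 and 18.6 at P0, 0.65 ± 0.19), a direction that turned under both other scalings and a call that was lost without P0 replicate 1 (0.66) or 2 (0.60). Acta2 and Myl9 are also smooth muscle genes. All 8 tested smooth muscle and pericyte markers were lower (sums of 11.6 to 16.2 FPKM in the explants and 94.8 to 129 at P0), as were 7 of 9 tested fibroblast markers. In each list 4 markers reached 1 FPKM in both explants. The other tested ones met the filter only with P0 libraries, so their direction is no support. The part of such cells in these differences, and in that of Tagln given later, was not tested.

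**Figure D3:**
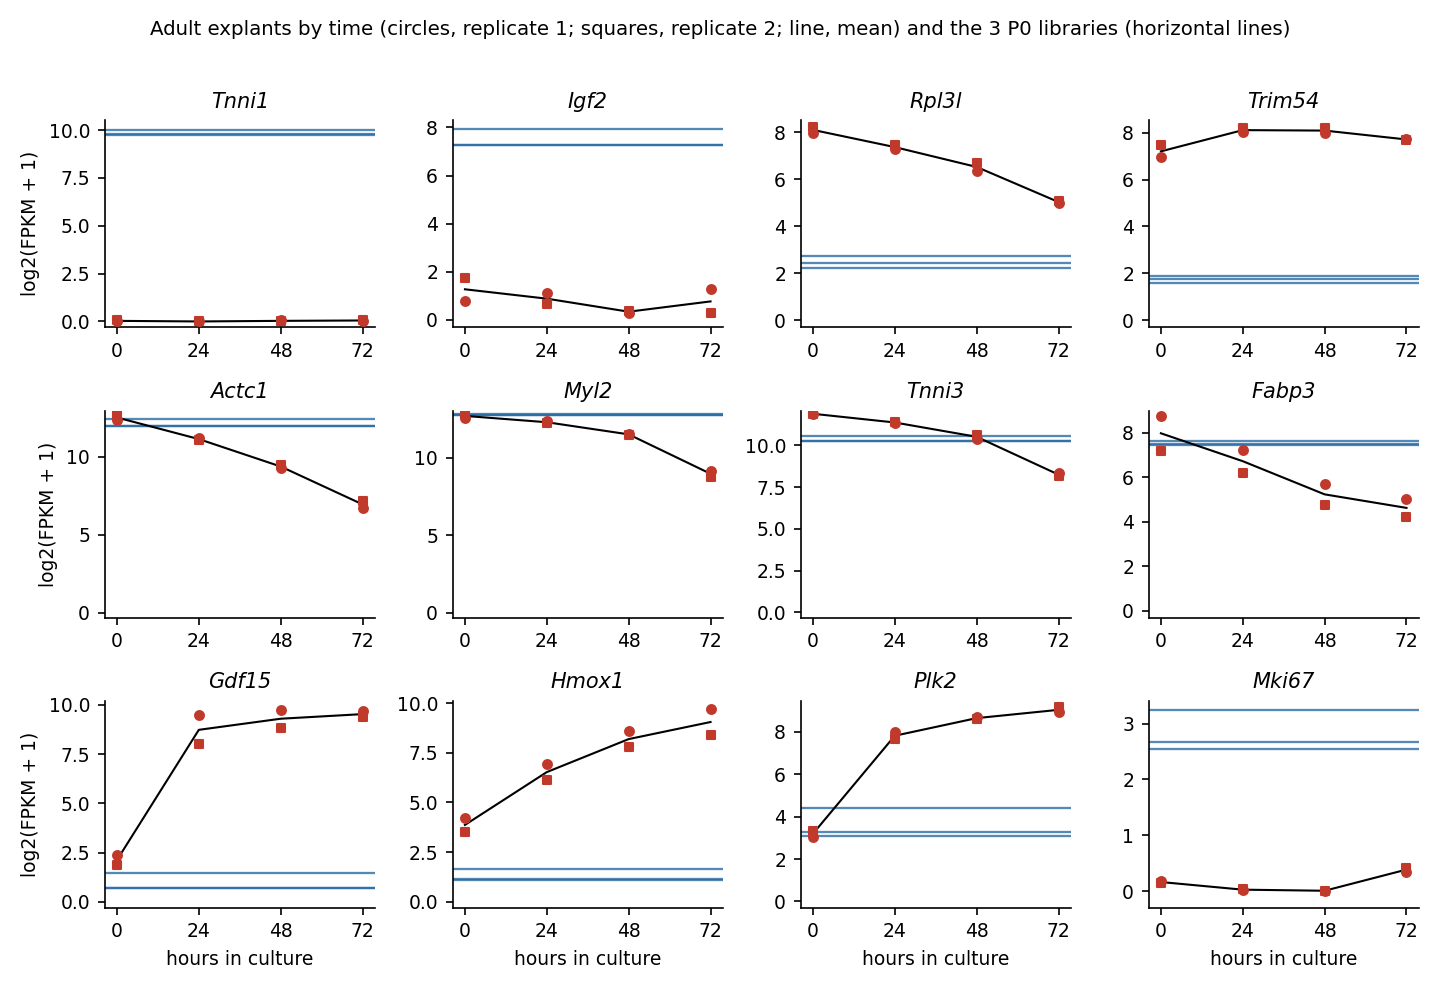
Each panel gives 1 gene in log2(FPKM + 1) against hours in culture, with circles and squares for explant replicates 1 and 2, a line through their means and 3 horizontal lines for the P0 libraries. Tnni1 and Igf2 lie far below P0 at all 4 times, Rpl3l and Trim54 above it at all 4, Actc1, Myl2, Tnni3 and Fabp3 end below it, and Gdf15, Hmox1 and Plk2 end far above it.

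Genes of the adult sarcomere and Z-disc divided into 14 lower and 9 higher of 25 tested (13 and 4 under all 3 scalings), with a median of -0.87. Without P0 replicate 1 only 5 were higher. Before culture the same list had 18 members higher than P0 and 1 lower, with a median of 1.09. Tnni3, the adult cardiac troponin I, shows this course: it stood at 3749.8 and 3789.6 FPKM at 0 h, 1324 and 1589 at 48 h and 319 and 286 at 72 h, against 1231, 1231 and 1472 at P0. The adult cells began above every P0 library (1.53, adjusted p = 0.00058) and ended below every one (-2.11 ± 0.18, adjusted p = 3.4e-05). Myl2, the ventricular regulatory light chain, fell below P0 in the same way, at 583 and 437 FPKM in the explants against 6902, 6927 and 7440.2 at P0 (-3.81 ± 0.20, adjusted p = 3.1e-06). Myh6, the adult myosin heavy chain of the mouse, stood at 163 and 199.8 FPKM in the explants against 1517, 1565 and 2220.3 at P0 (-3.26 ± 0.22, adjusted p = 1e-05). Its 0 h values of 4762 and 0 FPKM include a 0 beside a high value, which is taken as a failed estimate, so no 0 h difference is read from it. The call was lost in the fits that take in the 0 h libraries (adjusted p = 0.149 over 20 libraries and 0.0712 over 36). Trim55, a ubiquitin ligase of the sarcomere, was the member with the largest decrease (7.41 and 6.55 FPKM in the explants against 102, 106 and 140.3 at P0, -3.86 ± 0.21) and the only one already lower at 0 h (32.8 and 34.9 FPKM). Tcap, which caps titin at the Z-disc, went from 1619 and 1134 FPKM at 0 h to 36.5 and 17.9, below the P0 values of 89, 91.8 and 104.

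A few members of the same list stayed or became far higher than in newborn cells. Xirp2, an actin-binding protein of the intercalated disc and Z-disc, stood at 673 and 602 FPKM in the explants against 1.77, 1.62 and 1.52 at P0 (7.92 ± 0.19, adjusted p = 6.9e-08; chr2:67072586-67364671 in mm9). Both explants were far above each P0 library, and the 0 h cells stood between them at 101 and 194 FPKM. Trim54, a ubiquitin ligase of the same family as Trim55, stood at 215 and 203 FPKM in the explants against 1.99, 2.42 and 2.67 at P0 (5.97 ± 0.20, adjusted p = 3.4e-07). Its 0 h values were 122 and 176 FPKM, so these relatives ended on opposite sides of the newborn level. Des, the intermediate filament desmin, and Lmod2, which sets thin filament length, were higher by 2.22 ± 0.23 and 2.59 ± 0.19. Des stood at 1438 and 894 FPKM in the explants against 219.7, 238 and 274 at P0, and Lmod2 at 238 and 289.8 FPKM in the explants against 39.1, 42.6 and 47.1 at P0. For both, the explants were above every P0 library.

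Genes of calcium handling and of the ion channels followed the sarcomere, with 16 of 28 tested lower and 5 higher (16 and 2 under all 3 scalings; median -1.04), against 4 lower and 13 higher at 0 h (median 0.70). Casq2, the calcium buffer of the sarcoplasmic reticulum, stood at 23.2 and 42.8 FPKM in the explants against 245, 247 and 316 at P0 (-3.05 ± 0.26, adjusted p = 3.4e-05), after 337 and 583 FPKM at 0 h. Pln, which restrains the calcium pump, stood at 205 and 239 FPKM in the explants against 1634, 1726 and 1736 at P0 (-2.93 ± 0.17, adjusted p = 5.3e-06). Slc8a1, the sodium-calcium exchanger, stood at 8.67 and 16.4 FPKM in the explants against 99.9, 108 and 149 at P0 (-3.19 ± 0.28, adjusted p = 3.8e-05). In each of these genes both explants lay below all 3 P0 libraries. Kcnip2, a subunit of the transient outward potassium channel, was at 103 and 67 FPKM at 0 h and 0.704 and 1.12 at 72 h, against 26.2, 28.4 and 32 at P0 (-3.97 ± 0.22, adjusted p = 3.7e-06). The T-type calcium channel Cacna1g, used by the fetal heart, was lower both before culture (2.5 and 5.56 FPKM) and after it (0.0725 and 0.295, against 20.2, 20.2 and 33.6 at P0; -4.40 ± 0.27, adjusted p = 6.7e-06). S100a1, a calcium sensor that supports the calcium pump, was higher under all 3 scalings (477 and 358 FPKM in the explants against 105, 106 and 108 at P0, 1.95 ± 0.19).

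Pairs of isoforms are less sensitive to scaling, because a factor common to a library drops out of their ratio when both members are well above 1 FPKM. A set of 17 pairs set a form that rises with maturation or is muscle-specific over its early or ubiquitous counterpart. The ratio for Tnni3 over Tnni1 was 8.32 and 8.06 in the explants and 0.48, 0.5 and 0.51 at P0, in log2. Those of Myl2 over Myl7 (9.19 and 8.55 against 6.38, 6.37 and 5.84) and Myl3 over Myl4 (9.13 and 8.62 against 5.15, 5.21 and 4.85) were also above every P0 library. In these pairs the adult form was itself lower than at P0, and the early form lower still. The early forms stood at 1.29 FPKM or less in the explants, so these ratios do not meet the condition above. In the explants they mostly follow the level of the adult form. The muscle forms of cytochrome oxidase lay between the newborn and the 0 h balance: Cox7a1 over Cox7a2 stood at 2.03 and 1.7 against -0.54, -0.4 and -0.47, Cox6a2 over Cox6a1 at 3.31 and 3.45 against 1.5, 1.48 and 1.35, and Cox8b over Cox8a at 1.24 and 2.95 against -0.27, -0.29 and -0.44. Rpl3l, a ribosomal protein of mature striated muscle, stood at 30.4 and 33.1 FPKM in the explants against 4.39, 3.66 and 5.56 at P0 (2.58 ± 0.22, adjusted p = 3.4e-05) but had stood at 253 and 297 FPKM at 0 h. Its ratio over Rpl3 went from 7.04 and 7.43 at 0 h to 0.77 and 2.34 at 72 h, against 0.12, -0.21 and 0.21 at P0. The explants thus lay above every P0 library, replicate 2 further than replicate 1, with the limit that Rpl3 has many pseudogenes and was listed at 17.3 FPKM or less in all of these libraries.

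Some pairs went past the newborn balance in the opposite direction. Slc2a4, the insulin-responsive glucose transporter of muscle, over the widespread Slc2a1 had a log2 ratio of 4.2 and 3.87 at 0 h, -1.17 and -2.94 at 72 h and 2.13, 2.2 and 2.27 at P0. Both explants thus lay below every P0 library. Eno3 over Eno1, muscle over ubiquitous enolase, stood at 3.41 and 2.63 in the explants against 4.76, 5.1 and 4.69 at P0, and Pgam2 over Pgam1 at 1.66 and 2 against 3.81, 4.01 and 3.99. Slc25a4 over Slc25a5, the heart and the general carrier of ADP and ATP, stood at 0.79 and 1.44 against 2.6, 2.67 and 2.63. For Cpt1b over Cpt1a and Ckm over Ckb the explants and P0 overlapped, at 3.32 and 2.96 against 2.87, 2.94 and 2.98 and 5.33 and 5.31 against 5.3, 5.35 and 4.97. No pair was tested as a ratio, and with 2 against 3 libraries an exact permutation test cannot give a p under 0.1.

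**Figure D4:**
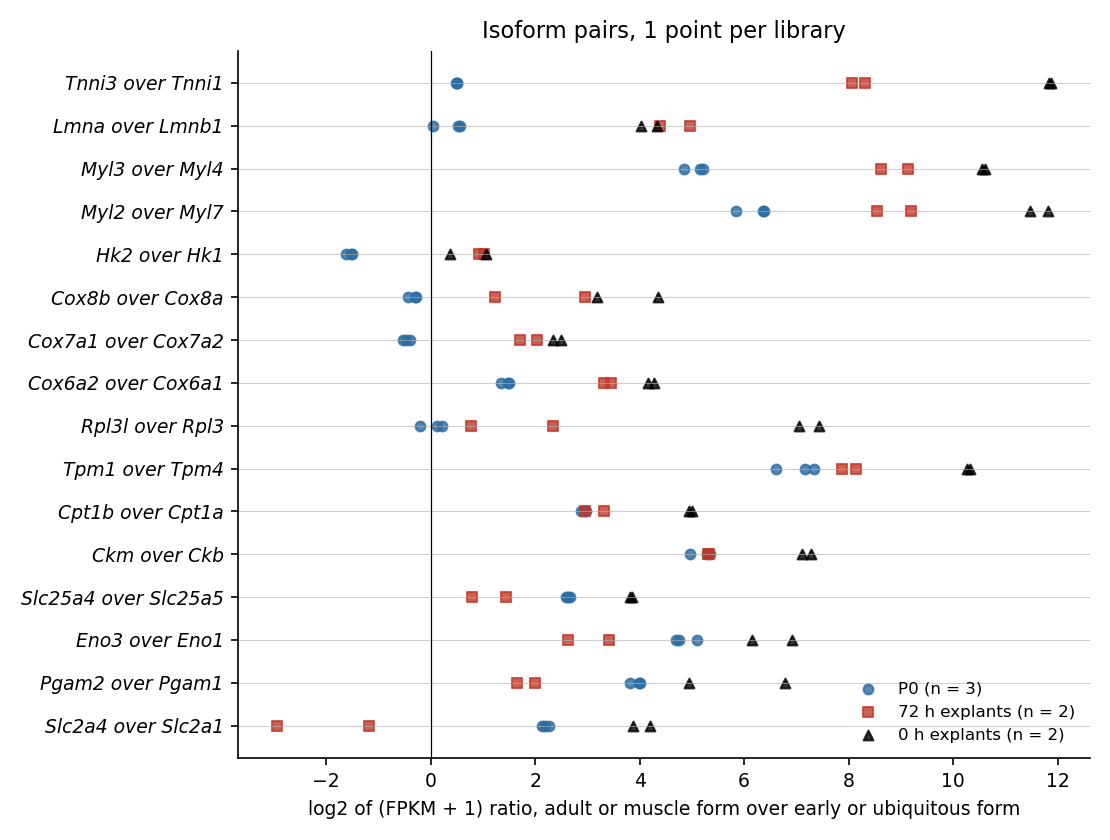
Log2 ratios of (FPKM + 1) for 16 isoform pairs, 1 point per library (circles P0, squares 72 h explants, triangles 0 h explants); the Myh6 pair is left out because of its 0 at 0 h. Pairs from Tnni3 over Tnni1 down to Tpm1 over Tpm4 lie above P0 at 72 h, Cpt1b over Cpt1a and Ckm over Ckb overlap P0, and the 4 lowest rows lie below P0.

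Fatty acid oxidation was lower in the explants than in newborn cells, in 23 of 29 tested genes and higher in none (limma, also none at an unadjusted p under 0.05), with the same 23 under all 3 scalings (median -1.44). The adult cells had begun on the other side, with 11 members higher and 3 lower at 0 h (median 0.50). Fabp3, the fatty acid binding protein of heart muscle, stood at 31.9 and 17.4 FPKM in the explants against 176, 197 and 182 at P0 (-2.91 ± 0.25, adjusted p = 3.3e-05). Acaa2, which carries out the last step of the mitochondrial cycle, stood at 63.2 and 61.2 FPKM in the explants against 368, 384 and 390.1 at P0 (-2.59 ± 0.17, adjusted p = 7.9e-06). Hadha, a subunit of the trifunctional enzyme, stood at 128 and 145 FPKM in the explants against 424, 451 and 463 at P0 (-1.71 ± 0.17, adjusted p = 7.4e-05). For all of these both explants lay below all P0 libraries. Cpt1a, the form of the carnitine transferase that the heart carries before weaning, stood at 5.51 and 4.84 FPKM at 0 h and 4.26 and 4.93 at 72 h, against 20.6, 21.3 and 23.4 at P0. Cpt1b, the muscle form, stood at 208 and 178 FPKM at 0 h and 51.7 and 45 at 72 h, against 157, 170.0 and 191 at P0. The decrease of the muscle form thus fell within the culture and the low level of the early form did not. Ucp3, the muscle uncoupling protein that follows fatty acid supply, stood at 0.311 and 0.395 FPKM in the explants against 13.3, 13.1 and 8.31 at P0 (-3.19 ± 0.26, adjusted p = 2.4e-05).

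Genes of respiration and the citric acid cycle were lower in a smaller share, with 19 of 34 tested genes lower and 5 higher (19 and 2 under all 3 scalings; median -0.66), against 24 higher and none lower at 0 h (median 0.77). Slc25a4 stood at 353 and 327 FPKM in the explants against 1343, 1422 and 1582 at P0 (-2.09 ± 0.18, adjusted p = 3.2e-05). Cs, citrate synthase, stood at 145 and 113 FPKM in the explants against 280.5, 293 and 355 at P0 (-1.26 ± 0.20, adjusted p = 0.00069). The exceptions under all 3 scalings were Ckmt2, the mitochondrial creatine kinase of muscle (228 and 143 FPKM in the explants against 37.4, 39.6 and 43.6 at P0, 2.15 ± 0.23), and Cox5b (81.4 and 50.2 FPKM in the explants against 18.4, 16.7 and 17.1 at P0, 1.82 ± 0.23). Ckmt2 had stood at 1325 and 1179.7 FPKM at 0 h, so the explants kept a part of that level. In glycolysis 6 of 23 tested genes were higher and 9 lower (3 and 9 under all 3 scalings), and the higher ones included the entry steps. Slc2a1, the glucose transporter of growing cells, stood at 93.1 and 118 FPKM in the explants against 5.01, 4.73 and 7.79 at P0 (3.98 ± 0.25, adjusted p = 6.4e-06), against 7.59 and 7.75 FPKM at 0 h, and Hk2, hexokinase 2, at 131 and 119.5 FPKM in the explants against 13.9, 14.8 and 20.4 at P0 (2.88 ± 0.21, adjusted p = 1.7e-05), against 85.4 and 114 at 0 h. Pkm2, pyruvate kinase, was the other member higher under all 3 scalings (406 and 676 FPKM in the explants against 131, 130.3 and 168 at P0, 1.88 ± 0.25). Eno3 was the member with the largest decrease, at 48.3 and 46.9 FPKM in the explants against 437, 454 and 550.3 at P0 (-3.30 ± 0.18, adjusted p = 3.8e-06).

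The 72 h explants carried little of the newborn cell cycle program. Of 29 tested genes of mitosis and cytokinesis 28 were lower, also under all 3 scalings, and none was higher, also at an unadjusted p under 0.05 (median -2.00), while at 0 h 28 were lower and 1 was higher (median -2.30). The P0 levels were themselves modest. Mki67, the proliferation antigen Ki-67, stood at 0.274 and 0.339 FPKM in the explants against 4.83, 5.33 and 8.49 at P0 (-2.43 ± 0.26, adjusted p = 0.0001). Ccnb1, cyclin B1, stood at 0.022 and 0.248 FPKM in the explants against 2.85, 3.11 and 3.35 at P0 (-1.86 ± 0.21, adjusted p = 0.00014). Cdk1, its kinase partner, stood at 0.388 and 1.22 FPKM in the explants against 15.1, 14.7 and 24.5 at P0 (-3.41 ± 0.30, adjusted p = 3.8e-05). Top2a, topoisomerase of dividing cells, stood at 2.7 and 1.68 FPKM in the explants against 13.2, 14.1 and 24 at P0 (-2.48 ± 0.29, adjusted p = 0.00017). In each the explants lay below every P0 library. At 0 h Top2a had stood lower still, at 0.0239 and 0.159 FPKM, as had Mki67, at 0.133 and 0.105. Ccnb1 was listed at 0 in both 0 h libraries, and Cdk1, at 0.871 and 0.283 FPKM, overlapped its 72 h values. Ccna2, the cyclin of S phase and mitosis, was among the members with the largest decreases, at 0.28 and 0.867 FPKM in the explants against 14.6, 14.8 and 22.3 at P0 (-3.54 ± 0.27, adjusted p = 2e-05). Mki67, Ccnb1 and Ccna2 lay below 1 FPKM in both explants and met the filter only with P0 libraries. Their direction, and that of any such member in the counts, is no support. Cks2, a small partner of the cyclin-dependent kinases, was the member not called, at 3.69 and 0.628 FPKM in the explants against 1.7, 1.52 and 1.88 at P0, with the explants on both sides of P0: it was called higher without explant replicate 2 (0.80) and lower without explant replicate 1 (-0.73). Cenpa, the histone of the centromere, was the member that had been higher at 0 h (32.1 and 27.7 FPKM), and it stood at 3.41 and 2.33 FPKM in the explants against 18.9, 19.9 and 21.4 at P0 at 72 h.

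Promoters of these genes are known for CCAAT boxes, which bind NF-Y, and for the CHR element TTTGAA, both used in G2/M expression. In the 250 bases before the start site (RefSeq, GRCm38.p6, matched by symbol, either strand), CCAAT was present in 21 of 25 list members with an entry (84.0%) and in 37.5% of 27025 genes, and TTTGAA in 9 of 25 (36%) against 18.3%. Promoters of Ube2c, the member with the largest decrease (near 0 and 0.208 FPKM in the explants against 15.7, 13.8 and 15.2 at P0; promoter at chr2:164769679-164769928, plus strand), and of Cdk1 (chr10:69352913-69353162, minus strand) are shown because they hold both. Each TTTGAA and each CCAAT, on either strand, is in capitals. Both are written 5′ to 3′ in the direction of the gene, and a match is a description of letters, not of binding.
Ube2c: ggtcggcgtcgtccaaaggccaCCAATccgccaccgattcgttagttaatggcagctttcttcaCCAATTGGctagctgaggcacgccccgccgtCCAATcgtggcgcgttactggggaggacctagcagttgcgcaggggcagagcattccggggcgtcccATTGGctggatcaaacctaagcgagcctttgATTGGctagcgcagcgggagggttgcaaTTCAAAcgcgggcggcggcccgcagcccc
Cdk1: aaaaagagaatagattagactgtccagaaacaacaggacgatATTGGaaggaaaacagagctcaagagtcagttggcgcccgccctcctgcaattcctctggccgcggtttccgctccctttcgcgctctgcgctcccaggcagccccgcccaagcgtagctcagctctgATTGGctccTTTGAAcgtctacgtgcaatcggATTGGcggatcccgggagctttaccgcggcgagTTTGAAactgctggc

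Replication genes were lower less uniformly, with 17 of 26 tested lower and none higher, at an unadjusted p as well (16 lower under all 3 scalings; median -0.94), against 22 lower and none higher at 0 h (median -1.67). Rrm2, a subunit of ribonucleotide reductase, stood at 0.134 and 0.753 FPKM in the explants against 14.6, 15.8 and 27.1 at P0 (-3.79 ± 0.31, adjusted p = 2.9e-05). Mcm2, of the replicative helicase, stood at 0.948 and 1.41 FPKM in the explants against 7.01, 7.31 and 13.2 at P0 (-2.18 ± 0.29, adjusted p = 0.00031). E2f1, the S phase transcription factor, stood at 0.82 and 1.57 FPKM in the explants against 3.99, 4.17 and 7.51 at P0 (-1.48 ± 0.30, adjusted p = 0.0025). The remaining 9 genes were not called. E2f1 had stood at 0.247 and 0.049 FPKM at 0 h, below both 72 h values, while Rrm2 and Mcm2 overlapped theirs. Rrm2 lay below 1 FPKM in both explants and met the filter only with P0 libraries, so its direction is no support. Among the D cyclins, inhibitors and brakes, 9 of 18 tested were higher and 5 lower (7 and 5 under all 3 scalings). The share higher is near the 46.1% of all genes, and each of the other scalings gave 7 higher and 8 lower. Cdkn1a, the inhibitor p21, stood at 140.0 and 164 FPKM in the explants against 8.94, 8.34 and 12 at P0 (3.84 ± 0.21, adjusted p = 3.9e-06), with 21.2 and 16.6 FPKM at 0 h. Gadd45a, a damage-response gene, stood at 84.1 and 62 FPKM in the explants against 3.2, 3.59 and 4.57 at P0 (3.94 ± 0.23, adjusted p = 4.7e-06). Trp53, which encodes p53, stood at 14.9 and 16.5 FPKM in the explants against 5.19, 6.24 and 8.67 at P0 (1.14 ± 0.24, adjusted p = 0.0033). All 3 genes were above every P0 library in both explants. Ccnd3, cyclin D3, was lower (19.4 and 6.82 FPKM in the explants against 42.3, 42.1 and 49.2 at P0, -1.85 ± 0.35), as was Rbl1, the pocket protein p107 (0.188 and 0.61 FPKM in the explants against 3.36, 3.29 and 5.61 at P0, -1.85 ± 0.27).

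Imprinted and fetal growth genes were mostly lower in the adult cells than in newborn cells, before culture and after it. Of 17 tested, 10 were lower, all under every scaling, and 2 were higher (1 under all 3), and at 0 h 16 were lower and none higher. Igf2, the fetal insulin-like growth factor, stood at 1.41 and 0.206 FPKM in the explants against 152, 152 and 241 at P0 (-6.71 ± 0.32, adjusted p = 2.6e-06; chr7:149836672-149852721 in mm9). Plagl1, a zinc-finger regulator of imprinted genes, stood at 0.744 and 1.07 FPKM in the explants against 59.1, 55.1 and 76.1 at P0 (-5.07 ± 0.22, adjusted p = 1.4e-06). Meg3, a maternally expressed long RNA, stood at 0.022 and 0.23 FPKM in the explants against 22, 18.7 and 33.9 at P0 (-4.49 ± 0.28, adjusted p = 6.7e-06). Their 0 h values were 0.744 and 2.36 FPKM for Igf2, 2.28 and 0.444 for Plagl1 and 0 and 0.183 for Meg3, as far from P0 as those at 72 h. Dlk1, a Notch-like ligand of fetal tissues, was listed at 0 in both explants and at 4.03, 2.35 and 6.8 FPKM at P0. The RNA-binding proteins of the same growth axis split: Igf2bp3 stood at near 0 and 0.0404 FPKM in the explants against 4.33, 4.06 and 4.83 at P0 (-2.40 ± 0.21, adjusted p = 3.3e-05). Igf2bp2 was higher, at 31.6 and 21.9 FPKM in the explants against 6.18, 5.7 and 6.82 at P0 (1.92 ± 0.23, adjusted p = 0.00016), after 0.822 and 0.774 FPKM at 0 h. Igf1r, the receptor, was called higher (10.8 and 13.3 FPKM in the explants against 4.7, 4.9 and 6.86 at P0, 1.02 ± 0.23), but not after median-of-ratios scaling or quantile normalization. Meg3, Dlk1 and Igf2bp3 lay below 1 FPKM in both explants at 72 h and at 0 h. They met the filter only with P0 libraries, so their direction is no support in either comparison.

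Genes of the oxidative stress response set the explants apart from both newborn and freshly isolated adult cells. NRF2 is a transcription factor that is held inactive by KEAP1 and, under oxidative or electrophilic stress, switches on enzymes of glutathione, thioredoxin and NADPH. Of 23 tested genes of its program 21 were higher and none lower, at an unadjusted p as well (20 higher under all 3 scalings), and their median was 3.29, where that of the whole table was 0.53, while at 0 h 9 of 21 were higher and 2 lower (median 0.39). Hmox1, heme oxygenase, stood at 17.8 and 10.4 FPKM at 0 h, 122 and 68 at 24 h, 383 and 220.2 at 48 h and 820.5 and 339 at 72 h, against 1.23, 1.15 and 2.14 at P0 (7.74 ± 0.35, adjusted p = 1.9e-06). The explants were far above P0, and explant replicate 1 was above replicate 2. Nqo1, the quinone reductase, stood at 192 and 161 FPKM in the explants against 5.06, 5.24 and 6.37 at P0 (4.76 ± 0.20, adjusted p = 1.3e-06). Txnrd1, thioredoxin reductase, stood at 302 and 235 FPKM in the explants against 8.74, 9.4 and 12.9 at P0 (4.57 ± 0.22, adjusted p = 2.6e-06). Srxn1, sulfiredoxin, stood at 177 and 74.9 FPKM in the explants against 1.48, 1.35 and 1.93 at P0 (5.50 ± 0.34, adjusted p = 6.3e-06). Slc7a11, the cystine importer, was at 18.6 and 26 FPKM in the explants against 0.0562, 0.0175 and 0.114 at P0 (4.44 ± 0.23, adjusted p = 3.1e-06). In each the explants lay far above P0. The enzymes of glutathione synthesis Gclc and Gclm were higher by 2.95 ± 0.23 and 3.02 ± 0.21, and those of the pentose phosphate route Pgd and Taldo1 by 3.79 ± 0.21 and 3.29 ± 0.18. Gsta1 and, outside the list, Gsta2, near-identical glutathione transferases between which reads can be split, were listed at 0 in all 3 P0 libraries. In the explants Gsta1 stood at 259 and 93.4 FPKM and Gsta2 at 199 and 71.4. The metallothionein Mt2 was called higher but differed widely between the explants (1645 and 83.6 FPKM in the explants against 10.7, 10.6 and 9.21 at P0). Sod2, the mitochondrial superoxide dismutase (103 and 185 FPKM in the explants against 114, 119 and 132 at P0), and Tkt, transketolase (8.66 and 6.69 FPKM in the explants against 5.79, 5.15 and 7.66 at P0), were not called. Sod2 was called higher without explant replicate 1 (0.61).

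The antioxidant response element holds the core TGACNNNGC. In the 250 bases before the start site it was present on either strand in 6 of 19 list members with an entry (31.6%) and in 11.5% of all genes. Txnrd1 (chr10:82858956-82859205, plus strand) and Gclm (chr3:122245307-122245556, plus strand) are shown as 2 of the higher members that hold it, with the match, here its reverse complement, in capitals.
Txnrd1: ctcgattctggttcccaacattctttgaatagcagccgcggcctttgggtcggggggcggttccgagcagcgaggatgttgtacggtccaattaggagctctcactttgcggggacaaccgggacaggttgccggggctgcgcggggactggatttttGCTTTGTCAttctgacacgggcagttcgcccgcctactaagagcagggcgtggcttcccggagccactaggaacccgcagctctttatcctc
Gclm: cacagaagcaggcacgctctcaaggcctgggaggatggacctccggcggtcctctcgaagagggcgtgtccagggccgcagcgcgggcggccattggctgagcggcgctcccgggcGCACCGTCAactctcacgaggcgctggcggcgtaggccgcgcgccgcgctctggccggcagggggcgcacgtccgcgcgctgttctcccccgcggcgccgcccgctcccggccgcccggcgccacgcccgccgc

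The amino acid and integrated stress response was nearly as uniform. ATF4 is translated when general protein synthesis is slowed and raises genes of amino acid import and synthesis. Of 16 tested genes of this list 15 were higher (13 under all 3 scalings) and none lower, also unadjusted (median 3.50), against 6 higher and 4 lower of 15 at 0 h (median 0.41). Gdf15, a secreted stress cytokine, had the largest increase of any gene named here: it stood at 4.21 and 2.64 FPKM at 0 h, 708 and 253 at 24 h, 859 and 456 at 48 h and 822 and 660.0 at 72 h, against 0.658, 0.656 and 1.78 at P0 (8.55 ± 0.27, adjusted p = 2.9e-07; chr8:73153291-73156355 in mm9). Atf4 itself stood at 418 and 564 FPKM in the explants against 32.4, 31.8 and 45.7 at P0 (3.71 ± 0.23, adjusted p = 6.3e-06). Atf5 stood at 299 and 298 FPKM in the explants against 7.1, 6.9 and 9.49 at P0 (5.10 ± 0.20, adjusted p = 8.6e-07). Trib3, a pseudokinase that feeds back on ATF4, stood at 98.9 and 47 FPKM in the explants against 0.295, 0.231 and 0.549 at P0 (5.68 ± 0.31, adjusted p = 3.9e-06). In all of these the explants lay above every P0 library. Asns, asparagine synthetase, and Mthfd2, a mitochondrial enzyme of folate metabolism, were lower at 0 h than at P0 and much higher at 72 h. Asns stood at 0.209 and 0.211, then 80.5 and 54 FPKM, against 1.1, 1.69 and 2 at P0, and Mthfd2 at 0.714 and 0.555, then 124 and 119, against 2.5, 2.84 and 3.08. Aldh1l2, a folate enzyme of mitochondria, was the member not called (4.55 and 2.56 FPKM in the explants against 4.4, 4.11 and 6.66 at P0), and it was called lower under both other scalings and without explant replicate 1 (-0.74).

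The element that ATF4 binds with a C/EBP partner reads TGATGNAA. It was present in the same window in 3 of 15 list members with an entry (20%) and in 3.91% of all genes, in Asns (chr6:7693210-7693459, minus strand), Chac1 (chr2:119350992-119351241, plus strand) and Herpud1. The first pair is shown, with the match in capitals; that of Chac1, which encodes an enzyme that breaks down glutathione and stood at 39.4 and 28 FPKM in the explants against 0.0492, 0.0541 and 0.0795 at P0 (5.01 ± 0.23, adjusted p = 1.9e-06), is its reverse complement.
Asns: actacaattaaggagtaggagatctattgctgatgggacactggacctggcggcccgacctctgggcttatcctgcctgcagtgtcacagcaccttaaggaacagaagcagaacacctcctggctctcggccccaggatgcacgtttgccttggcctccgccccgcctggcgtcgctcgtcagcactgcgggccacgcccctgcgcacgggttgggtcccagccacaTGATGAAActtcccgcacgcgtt
Chac1: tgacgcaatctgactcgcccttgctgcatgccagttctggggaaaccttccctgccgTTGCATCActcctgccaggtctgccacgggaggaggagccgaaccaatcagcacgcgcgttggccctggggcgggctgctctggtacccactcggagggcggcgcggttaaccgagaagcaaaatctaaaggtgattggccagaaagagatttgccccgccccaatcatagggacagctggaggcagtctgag

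Chaperones were higher in 10 of 17 tested genes and lower in none (1 at an unadjusted p under 0.05), with 7 higher under all 3 scalings (median 1.45). Both other scalings called 3 members lower, so only the 7 are clear of the scale. Without explant replicate 1 limma also called 3 lower. At 0 h 9 were higher. Hspb8, a small heat shock protein of the Z-disc, stood at 355 and 331 FPKM in the explants against 22.1, 22.1 and 26.5 at P0 (3.81 ± 0.18, adjusted p = 2.4e-06), with 308 and 166 FPKM at 0 h. Cryab, alpha-B crystallin, which protects desmin and titin, stood at 3891 and 2896 FPKM in the explants against 321, 334 and 357 at P0 (3.31 ± 0.19, adjusted p = 4.7e-06). In both genes the explants lay above every P0 library. Among genes outside the lists, Sqstm1, the autophagy receptor p62, stood at 3186 and 2979 FPKM in the explants against 51.1, 51.9 and 63.5 at P0 (5.78 ± 0.18, adjusted p = 2.9e-07). Clu, the extracellular chaperone clusterin, stood at 2235 and 2158 FPKM in the explants against 24.1, 26.3 and 25 at P0 (6.39 ± 0.17, adjusted p = 9.3e-08). Clu had been above P0 at 0 h (192 and 135 FPKM). Star, which brings cholesterol into mitochondria for steroid synthesis, stood at 129.6 and 60.8 FPKM in the explants against 0.543, 0.731 and 1.1 at P0 (5.66 ± 0.32, adjusted p = 4.2e-06). Plk2, a stress-responsive polo-like kinase, stood at 482 and 569 FPKM in the explants against 8.53, 7.51 and 20.5 at P0 (5.44 ± 0.36, adjusted p = 9.5e-06). Plk2 had stood at 7.3 and 9.05 FPKM at 0 h and 252 and 199 at 24 h.

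Genes by which dedifferentiation and stretch are usually followed did not move as one. Of 23 tested, 10 were higher and 9 lower (9 and 9 under all 3 scalings), against 6 higher and 12 lower at 0 h. Ankrd1, the stretch-responsive titin-binding repressor CARP, stood at 2752 and 2212 FPKM in the explants against 139.5, 140.2 and 183 at P0 (4.00 ± 0.20, adjusted p = 3e-06), and its relative Ankrd23 at 513 and 221 FPKM in the explants against 11.3, 11.9 and 13.9 at P0 (4.67 ± 0.32, adjusted p = 1.1e-05). Flnc, filamin C, stood at 488 and 267 FPKM in the explants against 24.7, 27.6 and 40.4 at P0 (3.54 ± 0.30, adjusted p = 3e-05). All 3 lay above P0 already at 0 h, where Ankrd1 stood at 1276 and 1165 FPKM, Ankrd23 at 376 and 249 and Flnc at 86.5 and 77.1. The natriuretic peptides parted: Nppb was higher at 439.5 and 146 FPKM in the explants against 39.3, 37 and 46.5 at P0 (2.61 ± 0.39, adjusted p = 0.00051). Nppa was lower at 269 and 88 FPKM in the explants against 318, 317 and 336 at P0 (-1.07 ± 0.38, adjusted p = 0.037). The Nppa call was lost without explant replicate 2 (-0.26) or P0 replicate 3 (-1.04). It was also lost in the fits over 20 and 36 libraries (adjusted p = 0.153 and 0.123), with no filter (0.187) and with P0 replicate 3 alone (0.175), and the level of explant replicate 1 lay near the P0 libraries. Tagln, transgelin, which smooth muscle also carries, was lower at 0.285 and 2.97 FPKM in the explants against 29.3, 26.9 and 13.9 at P0 (-3.36 ± 0.47, adjusted p = 0.00037). Runx1, which marks dedifferentiated cardiomyocytes, stayed below the level tested, at 0.87 and 0.52 FPKM in the explants and 0.298 or less at P0.

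The actin cytoskeleton and focal adhesion list had 15 of 29 tested members higher and 3 lower, which went to 9 and 3 under all 3 scalings. The share higher is near the 46.1% of all genes. Each of the other scalings alone gave 9 higher and 9 lower. At 0 h 18 were lower and none was higher, also at an unadjusted p. Lgals3, the lectin galectin 3, stood at 14.2 and 10.3 FPKM in the explants against 0.692, 0.197 and 0.839 at P0 (3.08 ± 0.27, adjusted p = 3.4e-05). Cd44, the hyaluronan receptor, stood at 27.4 and 19.7 FPKM in the explants against 2.04, 2.36 and 2.65 at P0 (2.86 ± 0.23, adjusted p = 2.6e-05) with 0.992 and 0.877 FPKM at 0 h, and Msn, moesin, at 248 and 196 FPKM in the explants against 32, 31.1 and 48 at P0 (2.57 ± 0.24, adjusted p = 4.6e-05) with 20.4 and 19.7 at 0 h. Both were below P0 before culture and above every P0 library after it. The thymosins Tmsb4x and Tmsb10, which hold actin monomers, were lower instead, Tmsb4x at 33 and 20.8 FPKM in the explants against 214, 197 and 261 at P0 (-3.04 ± 0.23) and Tmsb10 at 1.45 and 0.856 FPKM in the explants against 18, 18.9 and 23.1 at P0 (-3.29 ± 0.23). In the nuclear lamina list Lmna, lamin A/C, was higher at 155 and 79.7 FPKM in the explants against 20.3, 20.1 and 25.5 at P0 (2.30 ± 0.28, adjusted p = 0.00019). Lmnb1, the lamin B of proliferating cells, was lower at 4.02 and 2.85 FPKM in the explants against 13.9, 13.2 and 24.7 at P0 (-2.00 ± 0.29, adjusted p = 0.00049). Syne1, which ties the nuclear envelope to the cytoskeleton, was higher at 54.2 and 39.8 FPKM in the explants against 12.4, 12.5 and 16.3 at P0 (1.70 ± 0.22, adjusted p = 0.00027). Tmpo, a lamin partner of the inner nuclear membrane, was lower at 7.02 and 9.66 FPKM in the explants against 28.3, 27.6 and 40.3 at P0 (-1.82 ± 0.24, adjusted p = 0.00028). Of this list 5 of 12 were higher and 2 lower, 3 and 2 under all 3 scalings. Both main counts are near the shares over all genes, 46.1% higher and 15.5% lower. Rtn4, the endoplasmic reticulum shaping protein reticulon 4, stood at 1160.3 and 1469 FPKM in the explants against 61.2, 65.6 and 96.2 at P0 (4.15 ± 0.23, adjusted p = 4.2e-06).

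Matrix genes were lower in 15 of 24 tested members and higher in 3 (15 and 2 under all 3 scalings; median -1.78). At 0 h 19 were lower and none was higher, at an unadjusted p as well. Postn, periostin, stood at 0 and 1.48 FPKM in the explants against 109, 106 and 61.1 at P0 (-5.84 ± 0.39, adjusted p = 1e-05). Eln, elastin, stood at 0.839 and 0.257 FPKM in the explants against 88.7, 80.9 and 33.7 at P0 (-5.38 ± 0.39, adjusted p = 1.5e-05). Col1a1, type I collagen, stood at 1.84 and 3.91 FPKM in the explants against 74.4, 68 and 57.5 at P0 (-4.17 ± 0.26, adjusted p = 7e-06). Col3a1, type III collagen, stood at 9.58 and 5.75 FPKM in the explants against 103, 88.6 and 78 at P0 (-3.42 ± 0.24, adjusted p = 1.2e-05). In all 4 the explants lay far below P0. Such proteins are chiefly products of fibroblasts and smooth muscle, and the fibroblast marker list moved with them: 7 of its 9 tested members were lower, and their summed level was 22.1 to 25.2 FPKM in the explants, 206 to 303 at P0 and 12 to 19.6 at 0 h. Only 4 of the 9 fibroblast markers reached 1 FPKM in both explants, so the direction of the others is no support. The part of fibroblasts and smooth muscle in the matrix result was not tested. Spp1, osteopontin, stood at 10.8 and 51.3 FPKM in the explants and was listed at 0 in all 3 P0 libraries. Timp1, an inhibitor of matrix metalloproteinases, was higher at 17.7 and 43.6 FPKM in the explants against 4.33, 4.55 and 5.05 at P0 (2.36 ± 0.33, adjusted p = 0.00041). Loxl2, a collagen crosslinking enzyme, was lower at 0.856 and 1.38 FPKM in the explants against 19.2, 17.8 and 17.4 at P0 (-3.19 ± 0.22, adjusted p = 1e-05). Serpina3n, a protease inhibitor of the acute phase, was higher at 8.66 and 6.2 FPKM in the explants against 0.546, 0.4 and 0.419 at P0 (2.52 ± 0.22, adjusted p = 3.8e-05). In the list of proteases and inhibitors 3 of 13 were higher and 8 lower, all under every scaling.

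Immediate early genes, which respond within minutes to isolation and to growth signals, also split, with 7 of 18 higher and 6 lower (5 and 6 under all 3 scalings), against 8 higher and none lower (1 unadjusted) at 0 h. Fos stood at 212 and 243 FPKM at 0 h and 2.63 and 2.1 at 72 h, against 83.7, 74.7 and 170.1 at P0 (-4.94 ± 0.33, adjusted p = 1e-05), and Egr1 at 126 and 124 FPKM at 0 h and 4.37 and 2.11 at 72 h, against 65.7, 57.6 and 112 at P0 (-4.22 ± 0.33, adjusted p = 2.1e-05). Fosb went the same way, at 0.0179 and 0.508 FPKM in the explants against 22.8, 20.9 and 49.6 at P0 (-4.59 ± 0.37, adjusted p = 2.5e-05), after 22.5 and 26.1 FPKM at 0 h. Both the P0 and the 0 h cells were thus high and the cultured cells low. Ier3, a survival gene that responds to stress, went the other way, at 110.2 and 288 FPKM in the explants against 13.6, 12 and 26 at P0 (3.38 ± 0.42, adjusted p = 0.00021), with explant replicate 2 above replicate 1. Myc, the growth regulator, was also higher at 50.5 and 34.8 FPKM in the explants against 2, 2.04 and 5.04 at P0 (3.50 ± 0.34, adjusted p = 5.9e-05). Atf3 stood at 128 and 89.6 FPKM in the explants against 14.8, 14.8 and 33.9 at P0 (2.39 ± 0.35, adjusted p = 0.00048). Of 13 tested inflammatory genes 5 were higher, all under every scaling, and 4 lower (3 under all 3). Cebpb stood at 112 and 71.5 FPKM in the explants against 4.14, 3.37 and 5.33 at P0 (4.11 ± 0.26, adjusted p = 7.1e-06). Csf1, the macrophage growth factor, stood at 42.6 and 59.7 FPKM in the explants against 2.04, 2.35 and 3.29 at P0 (3.87 ± 0.25, adjusted p = 7.6e-06). Cxcl12 was lower at 0.973 and 2.35 FPKM in the explants against 15.2, 14.1 and 18 at P0 (-2.70 ± 0.27, adjusted p = 7.3e-05). Vcam1, an adhesion molecule for leukocytes, was lower at 1.38 and 1.14 FPKM in the explants against 11.9, 12.2 and 13.1 at P0 (-2.57 ± 0.21, adjusted p = 2.6e-05). Lcn2, lipocalin 2, stood at 7.49 and 7.03 FPKM in the explants and was listed at 0 in all P0 libraries.

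Oncostatin M, a cytokine known to drive dedifferentiation of cultured cardiomyocytes, acts through a receptor of OSMR and gp130. Osmr stood at 34.8 and 17.2 FPKM in the explants against 0.567, 0.713 and 1.23 at P0 (3.81 ± 0.32, adjusted p = 2.9e-05), after 0.948 and 1.15 FPKM at 0 h, and Il6st, which encodes gp130, at 136 and 129 FPKM in the explants against 12.8, 13.9 and 17.9 at P0 (3.08 ± 0.20, adjusted p = 9e-06), after 33.1 and 40.6. Both receptor chains were above every P0 library at 72 h. In that list 5 of 8 tested members were higher (3 under all 3 scalings) and none lower in limma, also unadjusted, with 1 lower after median-of-ratios scaling, and the ligand Osm was below the level tested. In the IL-4 and IL-13 list 2 of 5 were higher, Il4ra (4.52 and 2.97 FPKM in the explants against 0.587, 1.01 and 2.04 at P0, 1.14 ± 0.30) and Stat6 (25.2 and 16.4 FPKM in the explants against 11.3, 9.57 and 13.2 at P0, 0.80 ± 0.24), and neither under all 3 scalings. The Stat6 call was also lost without explant replicate 1 (0.50) and without P0 replicate 2 (0.69). Il13ra1 stood at 26.3 and 17.4 FPKM in the explants against 13.5, 14.2 and 17.8 at P0, with a difference of 0.48 that was not called, turned under the other scalings and was called higher without explant replicate 2 (0.76), and Il13 was below the level tested.

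Cardiac transcription factors were lower in 17 of 33 tested genes and higher in 5 (17 and 2 under all 3 scalings; median -0.65), against 13 lower and 5 higher at 0 h. Hopx, a homeodomain protein without DNA binding, stood at 19.99 and 16.6 FPKM in the explants against 346, 349 and 394 at P0 (-4.24 ± 0.18, adjusted p = 1.4e-06), after 267 and 249 FPKM at 0 h. Hey2, a Notch target of the compact ventricle, stood at 1.3 and 1.44 FPKM in the explants against 28, 25.1 and 36.7 at P0 (-3.69 ± 0.23, adjusted p = 6.4e-06). Tbx20 stood at 7.98 and 9.02 FPKM in the explants against 58.8, 60.4 and 72.1 at P0 (-2.77 ± 0.19, adjusted p = 1.2e-05), and both had been low at 0 h, Hey2 at 1.47 and 0.606 FPKM and Tbx20 at 18.3 and 11.3. Mef2c was lower at 3.09 and 3.48 FPKM in the explants against 12.3, 11.6 and 17.2 at P0 (-1.76 ± 0.24, adjusted p = 0.0003). Of the thyroid hormone receptors, which drive isoform switching after birth, Thra was lower at 9.25 and 8.86 FPKM in the explants against 51.7, 54 and 55.7 at P0 (-2.45 ± 0.18, adjusted p = 1.6e-05). Thrb was higher at 3.93 and 4.15 FPKM in the explants against 0.64, 0.686 and 0.524 at P0 (1.64 ± 0.20, adjusted p = 0.0002). Thrb met the filter only with the explants, so its direction is no support. Pparg, better known from fat cells, was higher at 4.19 and 2.29 FPKM in the explants against 0.378, 0.201 and 1.39 at P0 (1.39 ± 0.33, adjusted p = 0.006). Its call was lost with no filter on low values (adjusted p = 0.0623) and with P0 replicate 3 alone (0.323). The Hippo list had 6 of 17 members higher and 2 lower (3 and 2 under all 3 scalings). Tead2, an embryonic partner of YAP, was lower at 0.715 and 1.15 FPKM in the explants against 12.1, 12.4 and 14.8 at P0 (-2.87 ± 0.23, adjusted p = 2.1e-05), and Ankrd1, a YAP target named above, had its largest increase.

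Markers of cell types were checked for both groups. All 5 cardiomyocyte markers in the table were called lower in the explants, of which 3 stayed called without explant replicate 1 and 3 without P0 replicate 3. Their summed level without Myh6, which has the 0 at 0 h, was 2969 to 3095 FPKM against 5848 to 7241 at P0 and 12764 to 12963 at 0 h. Fewer cardiomyocytes and less of these RNAs per cell cannot be told apart in bulk libraries. Of 12 macrophage and leukocyte markers 3 passed the filter on low values, which the explants alone met for some of them, so their direction is no support: Cd68 at 127 and 70.5 FPKM in the explants against 0.474, 0.495 and 1.26 at P0 (5.81 ± 0.31, adjusted p = 3.4e-06), Csf1r at 6.58 and 7.39 FPKM in the explants against 0.184, 0.119 and 0.2 at P0 (2.77 ± 0.20, adjusted p = 1.5e-05). Lyz2 stood at 2.49 and 4.79 FPKM in the explants against 0.881, 1.05 and 0.77 at P0 (1.25 ± 0.26, adjusted p = 0.0029). The other 9, among them Ptprc and the C1q chains, stayed below the level tested, so the sum of 84.6 to 138 FPKM, against 1.94 to 3.81 at P0, was mostly Cd68. Their part in the stress and inflammation results was not tested. Smooth muscle and pericyte markers were lower in all 8 tested, with sums of 11.6 to 16.2 FPKM against 94.8 to 129, and Abcc9, a potassium channel subunit of pericytes that cardiomyocytes also carry, stood at 3.35 and 4.6 FPKM in the explants against 49.4, 54.8 and 64.4 at P0 (-3.53 ± 0.21, adjusted p = 6.3e-06), after 51.8 and 50 at 0 h. Only 4 of the smooth muscle and pericyte markers reached 1 FPKM in both explants, so the direction of the others is no support. Of 6 tested atrial markers 5 were lower, and 3 without explant replicate 2. The same limit holds for them, since only 2 reached 1 FPKM in both explants. None of 9 endothelial markers was called in limma under any of the 3 scalings, and 1 was lower at an unadjusted p under 0.05. That count rested on single libraries: 8 were lower without P0 replicate 2, 4 without explant replicate 1 and 2 without P0 replicate 1. Cdh5, the cadherin of endothelial junctions, stood at 1.89 and 0.972 FPKM in the explants against 3.49, 2.75 and 25.5 at P0, and its difference was -1.68 with all libraries and -2.19 without P0 replicate 2. With P0 replicates 1 and 2 averaged 6 markers were lower. Their sum was 107 FPKM in P0 replicate 3, against 17.2 and 24.1 in the other two P0 libraries and 11.1 to 25.4 in the explants. The red blood cell markers were lower in 6 of 7, Hbb-b2 at 0.172 and 0.408 FPKM in the explants against 8549, 8683 and 422 at P0 (-11.26 ± 1.09, adjusted p = 6.3e-05). None of these markers reached 1 FPKM in both explants, so they met the filter only with P0 libraries and their direction is no support. Fabp4, of fat and capillary cells, was lower at 3.02 and 5.91 FPKM in the explants against 50.3, 41 and 198 at P0 (-3.84 ± 0.58, adjusted p = 0.00057). Of 8 epicardial markers 2 were higher, Krt8 (1.87 and 1.11 FPKM in the explants against 0.224, 0.266 and 0.438 at P0, 0.91 ± 0.22) and Upk1b (4.49 and 3.1 FPKM in the explants against 1.17, 1.68 and 2.67 at P0, 0.77 ± 0.28), the first under all 3 scalings. After median-of-ratios scaling 1 was higher and 4 were lower. The Krt8 call was lost in the fits over 20 and 36 libraries (adjusted p = 0.142 and 0.0788). The Upk1b call was lost without explant replicate 1 (0.56), P0 replicate 1 (0.60) or P0 replicate 2 (0.75). The sums of all 8 overlapped, at 14.9 to 25.4 FPKM in the explants and 15.8 to 33.1 at P0. Neutrophil, lymphocyte and lung markers were near 0 throughout, with none tested.

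Libraries of whole ventricle, none of which enter the comparison, give an outside measure of heart maturation. In the adult against the P0 ventricle 784 genes were higher and 2151 lower by 2-fold or more at an adjusted p under 0.05 (limma over the 16 ventricle libraries; 20.5% of 14306 tested, 5.48% higher and 15% lower). The 16 libraries include ventricles 1 and 7 days after sham surgery or resection, which add to the estimate of spread. The contrast itself rests on 2 adult and 2 P0 libraries, and a fit of those alone gave 772 higher and 2157 lower. Of the 600 genes of the adult set that were tested here, 344 were higher in 72 h explants than at P0 and 75 lower, and 181 were not called (median 0.90 against 0.53 for all genes). In the same set at 0 h 561 of 657 were higher and 17 lower. Of the 1964 tested genes of the newborn set, 839 were lower and 303 higher (median -0.41), and at 0 h 1590 of 1940 were lower and 11 higher. The newborn set made up 43.8% of all genes lower in the explants and 15.9% of all genes tested. The adult set made up 6.03% of all genes higher and 4.85% of all genes tested, so its share was near the background. Under all 3 scalings the adult set had 245 higher and 68 lower, and the newborn set 811 lower and 114 higher.

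Named members show what each part holds. Adult genes higher in the explants included Xirp2, Clu, Trim54 and Srxn1, given above. Each was above P0 at 0 h and stood higher still at 72 h, Trim54 by the least (122 and 176, then 215 and 203 FPKM). Srxn1 had stood at 5.83 and 3.33 FPKM at 0 h, so most of its 72 h level was not there before culture. The adult set members with the largest decreases were the globin genes Hbb-b2, Hbb-b1 and Hba-a1 and the heme synthesis gene Alas2, which are genes of red blood cells. Among the P0 libraries Hba-a1 stood at 3441, 3631 and 171 FPKM and Alas2 at 128, 144 and 10.3, so they were lowest in P0 replicate 3, as the globin sum was. The part of blood cells in these calls was not tested. Newborn genes still lower were led by Tnni1, Myl9, Igf2 and Myl7. Newborn genes that were higher in the explants than in newborn cells were led by Plk2, Mthfd2, Rtn4 and Myc, of which Mthfd2 and Myc are stress or growth genes described above. Mthfd2 was low in adult cells before culture (0.714 and 0.555 FPKM), and Rtn4 at 0 h (43.5 and 43.7 FPKM) was also below its P0 values.

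**Figure D5:**
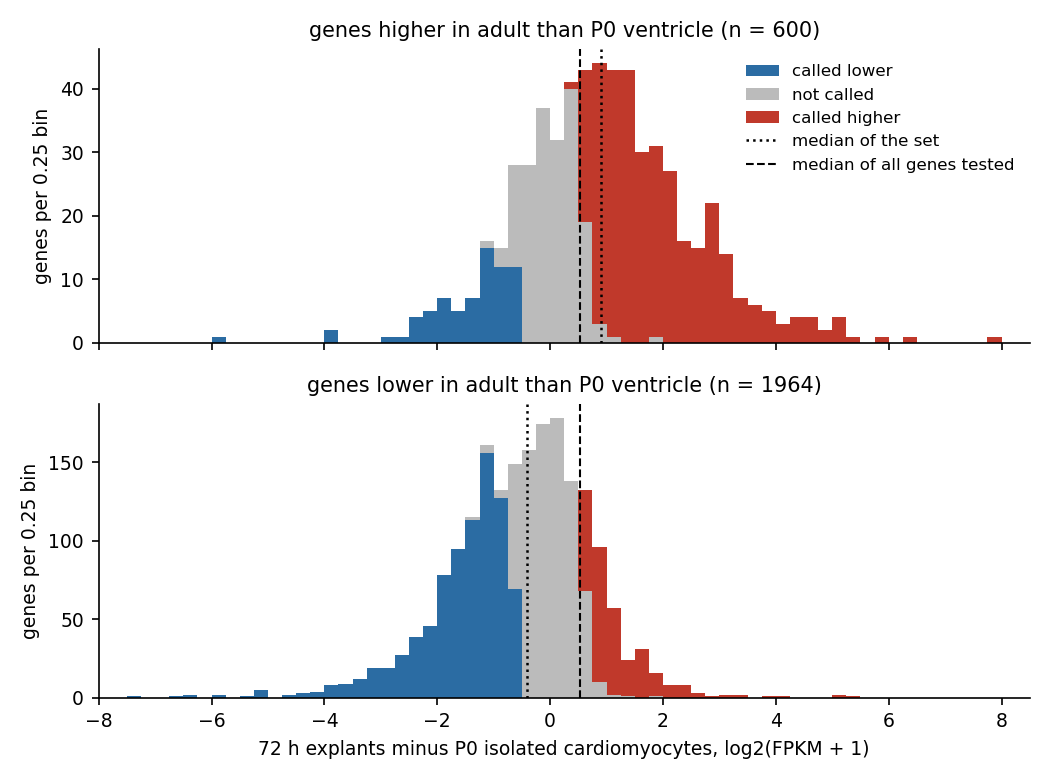
Numbers of genes per 0.25 step of the difference 72 h explants minus P0 in log2(FPKM + 1), for 600 genes higher (top) and 1964 genes lower (bottom) in adult than P0 ventricle, coloured by their call. The dotted line is the median of each set (0.90 and -0.41) and the dashed line that of all genes tested (0.53): most of the adult set lies to the right of 0 and the newborn set is spread to both sides, with 839 called lower.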

How the data were processed

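The measurements are one deposited table of FPKM values for 36 RNA-seq libraries, with no counts. TopHat 1.3.2 with Bowtie 0.12.7, Cufflinks 1.2.1, Cuffdiff and mouse build mm9 are named in the submitters' processing notes. Per the labels' protocols libraries came from an earlier protocol or from TruSeq kits, on the Genome Analyzer or the HiSeq, without saying which library had which. From the authors' FPKM, log2(FPKM + 1) was computed. Genes with at least 1 FPKM in 2 or more of the 5 libraries entered limma 3.58.1 (R 4.3.3) with a variance trend and Benjamini-Hochberg adjustment, and the 0 h comparison was made likewise. The fit was also run on simulated data in which a small part of the genes changed, in both directions. That setting holds no shift of all genes, so it does not bear on the scaling. Depth is unknown, so no counting error could be given, and the number of libraries limits the precision.

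The comparison, the 39 gene lists (652 genes found of 692) and the naming rule were chosen with earlier results of these data known. The rule took the 12 largest increases and decreases of genes that reach a mean of 5 FPKM in 1 group and do not overlap, up to 2 members each way of every list, 4 each way of each ventricle set, both members of each isoform pair and a short fixed list. Another 48 genes, mt-Co1 and mt-Co2 were named after their values were seen. Some genes that the rule takes are not reported here. Alternatives were the pseudocount, filters, scaling, libraries in the fit, zeros as missing values, a replicate block, a minimum fold and leaving out each library. The fits over 20 and 36 libraries also take in samples after sham surgery or resection. The labels do not say that replicate numbers mark animals or batches, so the numbers were not taken to pair libraries. Promoters were read from RefSeq (GRCm38.p6) by symbol, and gene coordinates are the table's own.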

Additional observations from a re-analysis of the deposited data

How the results depend on the processing

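The counts of genes higher and lower moved with the scaling: from 5702 and 1917 to 3052 and 3777 (median-of-ratios) and 3582 and 3245 (quantile). A 2-fold minimum gave 3664 and 1253. Of 25 pathway lists, 18 and 19 kept the direction with more calls under these scalings. The exceptions were the cell-cycle brakes, dedifferentiation, cytoskeleton, immediate early, Hippo and lamina lists, and the IL-4 and IL-13 list under median-of-ratios only. The inflammation list also turned or tied without either explant library, the immediate early list in 4 of 5 settings that leave out 1 library, the dedifferentiation list in 3 of these and over 36 libraries, the lamina list without P0 replicate 2, and the IL-4 and IL-13 list with no filter. With P0 replicate 3 alone 5 lists turned or tied. Leaving out 1 library gave 4544 to 5763 higher and 1587 to 2216 lower, and at 0 h 1325 to 2139 higher and 2661 to 3890 lower. Of settings added after the data were seen, P0 replicate 3 alone gave 1462 and 516, with 1 P0 library whose spread is taken from the other groups.

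The adult set, with 344 higher and 75 lower, had 150 lower with median-of-ratios scaling and 123 with the quantile method. The newborn set, with 303 higher and 839 lower, had 116 higher and 1259 lower, and 145 higher with the quantile method. Sets from the P7 ventricle are smaller and gave 73 and 33 for the first set and 21 and 147 for the second. Leaving out 1 library gave 266 to 334 and 66 to 98 for the adult set, 208 to 347 and 728 to 911 for the newborn set.

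With the replicate number as a block 5829 genes were higher and 1651 lower at 72 h, 1805 and 2496 at 0 h, and 783 and 2148 in the ventricle. Deviations of same-numbered libraries correlated at -0.025 and 0.026, so this pairing rests on a number only.

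Of 184 genes named here or by the rule, 147 had a value under all 18 alternatives, and 116 of these kept direction and call in each. Of the other 37, which some alternatives did not test, 35 kept both where they had a value. The direction turned under median-of-ratios and quantile scaling for Myl6 (-0.03 and -0.08), Hk1 (-0.34 and -0.40), Pgam1 (-0.53 and -0.57), Il13ra1 (-0.19 and -0.24), Cks2 (-0.40 and -0.03), Sod2 (-0.52 and -0.41) and Tkt (-0.34 and -0.27). It also turned for Cks2 at a pseudocount of 0.1 (-0.11) and without P0 replicate 2 (-0.01), and with P0 replicate 3 alone for Cks2 (-0.06), Hk1 (-0.04) and Tkt (-0.01). Without explant replicate 1 it turned for Pgam1 (-0.28) and Cks2 (-0.73), and without explant replicate 2 for Slc2a4 (0.44) and Sod2 (-0.23). Without the other explant library these genes stood at -0.99 (Slc2a4), 0.56 (Pgam1), 0.80 (Cks2) and 0.61 (Sod2). The cause was not tested in any of these.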
